A study of Mus musculus with 4 samples.

Results

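The genes described here are 9 of the 31053 genes counted in these nuclei: *Trem2*, *Tyrobp*, *Inpp5d*, *Plcg2*, *Syk*, *Lyn*, *Vav1*, *Apbb1ip* and *Bin1*. They were chosen by symbol as the TREM2 receptor, its adaptor, the kinases and lipid enzymes that act with it, and 2 genes of adhesion and membrane shaping. All 9 were counted in microglia of every library.

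Brains came from untreated 2-month-old female C57/BL6 mice, either WT or *Csf1r*+/- (HET), with 2 libraries of each genotype used here. The third library of each genotype, also sequenced, was not used here. HET mice carry 1 functional allele of *Csf1r*, the receptor for CSF-1 and IL-34 on which microglia depend, in every cell of the body from conception, so an effect in microglia and an effect through other cells cannot be told apart. Mice were perfused, myelin debris was removed with beads and nuclei were isolated without detergent, so that most cytoplasmic RNA was left behind. Values by library are given in the order WT replicate 1, WT replicate 2, HET replicate 1 and HET replicate 2.

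TREM2 is a lipid-sensing surface receptor of microglia with almost no signalling tail of its own. It signals through TYROBP (also called DAP12), whose intracellular ITAM motif is phosphorylated by Src family kinases such as LYN and then binds the kinase SYK. SYK activates PLCG2, which splits a membrane phosphoinositide and releases calcium, and VAV1, an exchange factor for Rac that acts on actin. INPP5D (SHIP1) is a phosphatase that removes the product of PI3 kinase and so restrains the pathway. APBB1IP (RIAM) links the small GTPase Rap1 to talin and integrins, and BIN1 (amphiphysin 2) bends membranes in endocytosis and in muscle tubules. *TREM2*, *INPP5D*, *PLCG2* and *BIN1* are known as risk genes of Alzheimer's disease.

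Positions are given for 8 of the members, which lie apart in the genome (GRCm38, GENCODE annotation), and that of *Bin1* is not given here. *Trem2* spans chr17:48346401-48354147 and *Vav1* chr17:57279100-57328031, *Tyrobp* chr7:30413760-30417585, *Inpp5d* chr1:87620312-87720507, *Plcg2* chr8:117498291-117635142, *Syk* chr13:52583173-52648792, *Lyn* chr4:3678115-3813122 and *Apbb1ip* chr2:22774094-22875653, all on the plus strand. *Lyn* overlaps *Gm26857*, a gene on the opposite strand with 64 UMIs in microglia. As it is not stated whether counting used the strand, reads of the overlapping stretch could be assigned to either.

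Promoters of *Trem2*, *Inpp5d*, *Plcg2*, *Syk*, *Vav1* and *Apbb1ip* were matched in RefSeq (GRCm38), each as 250 bases before to 50 after the start. They were searched on both strands for GAGGAAGT, the purine-rich letters that PU.1, the lineage factor of microglia, is known to favour. The letters were in 3 of the 6 genes, against 1052 of 32851 mouse promoters (3.20%). The first count is of genes and the second of promoter entries. *Syk* had entries at both chr13:52583187-52583486 and chr13:52596632-52596931. Those 3 are shown with the match in capitals, because it fell close to the RefSeq start in each. The match began 20 bases before the start of *Inpp5d*, 11 before that of *Vav1* and 5 bases past that of *Apbb1ip*, where it lay on the minus strand. For *Apbb1ip* the RefSeq window was chr2:22774077-22774376, and its start lies further into the gene than the GENCODE start given above. For *Apbb1ip*, 30 bases are shown. A match is a description of letters and not of binding, which was not measured.
Inpp5d (chr1:87620062-87620311, plus strand): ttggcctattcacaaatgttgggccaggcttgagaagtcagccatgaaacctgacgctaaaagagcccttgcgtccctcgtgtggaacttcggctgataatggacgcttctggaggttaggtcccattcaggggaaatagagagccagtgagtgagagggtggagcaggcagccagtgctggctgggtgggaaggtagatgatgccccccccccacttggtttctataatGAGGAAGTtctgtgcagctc
Vav1 (chr17:57278850-57279099, plus strand): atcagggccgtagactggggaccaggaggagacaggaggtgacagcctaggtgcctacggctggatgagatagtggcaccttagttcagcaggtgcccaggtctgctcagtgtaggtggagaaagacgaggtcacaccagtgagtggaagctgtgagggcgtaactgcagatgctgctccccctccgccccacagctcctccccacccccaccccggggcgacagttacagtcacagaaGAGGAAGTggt
Apbb1ip (chr2:22774321-22774350, plus strand): gggctcaaagcACTTCCTCctccctgagcc

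The 4 libraries held 52132 nuclei with 500 to 50000 UMIs (unique molecular identifiers, each a captured RNA molecule), more than 200 genes and less than 5% mitochondrial UMIs, 31361 from WT and 20771 from HET mice. The median nucleus had 4636 to 7454 UMIs, and both HET libraries were deeper. Pairs of libraries shared 33 to 68 barcodes. Nuclei were put into 8 classes by marker genes that did not include the members. This gave 695 microglia (192, 169, 183 and 151), 2393 oligodendrocytes, 68 OPCs (oligodendrocyte precursors), 53 astrocytes, 464 endothelial, 28 mural, 27459 excitatory and 5197 inhibitory neuron nuclei. A further 146 nuclei passed for more than 1 class and 15629 for none. Within 0.3% of the marker limit of 0.6% of UMIs, 137 nuclei lay below and 55 microglia above. All 22 microglia markers, among them *Cx3cr1* and *P2ry12*, were highest in microglia, the class that these markers were used to define. The UMIs of all genes summed over microglia were 246469, 254796, 286931 and 210757.

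*Csf1r*, the altered gene, was counted with 197, 212, 162 and 125 UMIs in microglia. After TMM scaling these were 822, 857, 548 and 577 CPM (counts scaled to a total of 1000000 UMIs), so both HET libraries lay below both WT libraries, as they did for 23.3% of genes. The HET mean was 0.669 times that of WT (log2 fold change -0.58, SE 0.18, edgeR adjusted p = 0.126). It passed the study's rule of an unadjusted p below 0.01 and missed the adjusted threshold.

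All members apart from *Bin1* had their highest level in microglia. Over 7 other classes and 9 genes there were 63 comparisons, and microglia were called higher in 62 (edgeR, adjusted p below 0.05). Of 22388 genes, the share called higher in microglia was 5.67% against OPCs, 6.14% against astrocytes, 6.31% against mural cells, 9.99% against endothelial cells, 11% against oligodendrocytes, 13.8% against inhibitory and 13.9% against excitatory neurons. Levels by class are CPM on library totals, mean ± SD over 4 libraries, and are compared between classes and not between genes.

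**Figure D1:**
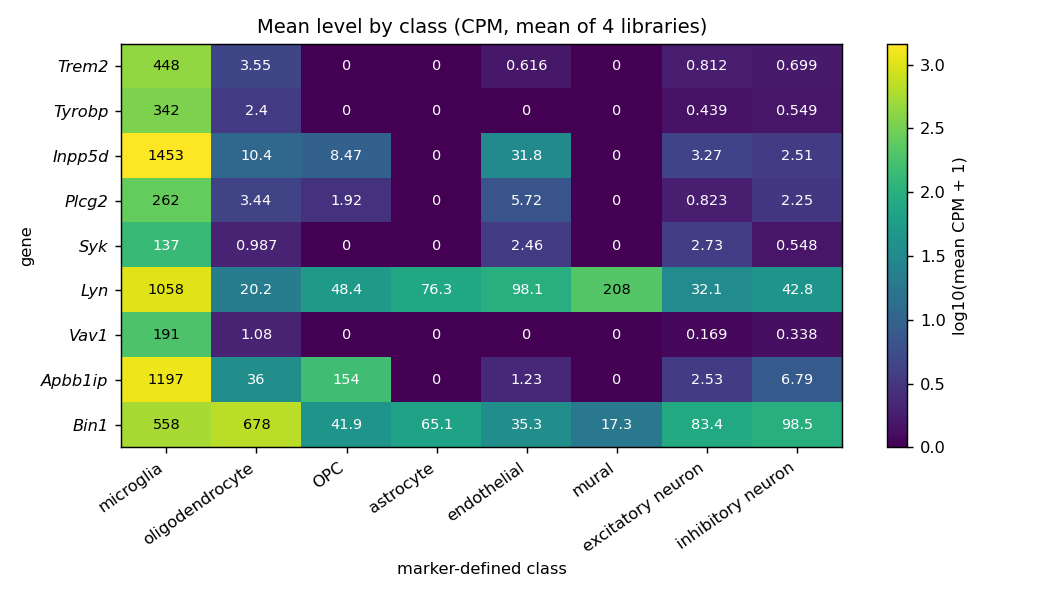
Mean CPM of the 9 genes (rows) in the 8 marker-defined classes (columns), each the mean of 4 libraries, coloured by log10(mean CPM + 1). The microglia column is the brightest for every gene except *Bin1*, which had 558 CPM in microglia and 678 in oligodendrocytes, and *Lyn* and *Bin1* were above 0 in all 8 classes.

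Among the receptor genes, *Trem2* was counted at 467, 392, 495 and 437 CPM in microglia (448 ± 43.8). The next level was 3.55 ± 2.07 in oligodendrocytes, 126-fold lower on the means. In excitatory neurons it was 0.812 ± 0.0718 and in inhibitory neurons 0.699 ± 0.530, which overlapped. No *Trem2* UMI was found in OPCs, astrocytes or mural cells, where a count of 0 allowed up to 15.5, 36.6 and 76.0 CPM, and 1 was found in endothelial nuclei.

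Its adaptor *Tyrobp* had 422, 212, 348 and 384 CPM in microglia (342 ± 91.6), with WT replicate 2 well below the others. The oligodendrocyte level was 2.40 ± 1.06, 142-fold lower, and overlapped that of inhibitory neurons. It had no UMI in the endothelial class, where the floor of 3 counts stood at 3.20 CPM. Over all microglia 449 *Trem2* and 339 *Tyrobp* UMIs were counted, with at least 54 of either gene in each library.

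Of the kinases, *Syk* had the fewest UMIs of the members in microglia, 28, 25, 43 and 39. Its level was 114, 98.1, 150 and 185 CPM (137 ± 38.9), 50.1-fold above excitatory neurons at 2.73 ± 0.305. Excitatory neurons stood above inhibitory neurons (0.548 ± 0.361), and the 4 libraries of those classes did not overlap, with 2.40 as the lowest excitatory and 1.02 as the highest inhibitory value. No difference between neuron classes was tested.

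*Lyn* had 978, 860, 1251 and 1143 CPM in microglia (1058 ± 174) and was present in more classes than *Syk*. Endothelial nuclei had 98.1 ± 16.2 CPM (91 UMIs), inhibitory neurons 42.8 ± 9.38, excitatory neurons 32.1 ± 9.0 and oligodendrocytes 20.2 ± 5.76. Mural nuclei had 208 ± 179 CPM, which rested on 8 UMIs. Microglia exceeded endothelial nuclei by 3.34 (SE 0.19) and mural nuclei by 3.63 (SE 0.39) on the TMM-scaled log2 scale. On library totals the order of these classes was the reverse, with microglia 5.08-fold above mural nuclei on the means. The size of the mural difference thus depended on the scaling. From mural cells down to oligodendrocytes each neighbouring pair of classes overlapped.

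Of the enzymes that act on phosphoinositides, *Inpp5d* had 1294, 1385, 1603 and 1528 CPM in microglia (1453 ± 139), 45.7-fold above the endothelial level of 31.8 ± 23.5, which varied from 17.5 to 66.8 between libraries. *Plcg2* had 223, 287, 293 and 247 CPM (262 ± 33.1), 45.9-fold above endothelial nuclei at 5.72 ± 4.77, where only 4 UMIs were counted. Inhibitory neurons had 2.25 ± 0.612 CPM of *Plcg2* and excitatory neurons 0.823 ± 0.314, and these ranges were apart, from 1.5 upwards against 1.26 and below.

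Of the cytoskeletal and adhesion genes, *Vav1* had 187, 169, 230 and 180 CPM in microglia (191 ± 26.8). This was 177-fold above oligodendrocytes at 1.08 ± 0.893, the largest such ratio of the members on the means. The oligodendrocyte level rested on 8 UMIs, with 0 in WT replicate 1, so the ratio is imprecise. *Vav1* had 0 UMIs in 4 classes (OPC, astrocyte, endothelial and mural). *Apbb1ip* had 1323, 875, 1349 and 1243 CPM (1197 ± 219), again lowest in WT replicate 2. Its oligodendrocyte level was even across libraries, 33.4 to 39.6 CPM (36.0 ± 2.64, 196 UMIs), and did not overlap the 4.49 to 9.78 CPM of inhibitory or the 2.12 to 3.61 CPM of excitatory neurons. OPCs had 154 ± 183 CPM from 13 UMIs.

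*Bin1* was the member with the widest distribution. Microglia had 495, 546, 638 and 555 CPM (558 ± 59.2) and oligodendrocytes 594, 648, 711 and 761 (678 ± 72.6). The ranges overlapped, although within each library oligodendrocytes were higher. The TMM-scaled fit called microglia lower (log2 difference -0.73, SE 0.16, edgeR adjusted p = 4.93e-05), a direction called in 11.9% of genes, and the call was lost on library totals alone (-0.28, adjusted p = 0.186). Inhibitory neurons had 98.5 ± 3.82 and excitatory neurons 83.4 ± 5.35 CPM, with no overlap, and microglia were 5.67-fold above inhibitory neurons.

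The proportion of the members to each other was described by dividing their counts by those of *Inpp5d* in the same library and class. *Trem2* stood at 0.283 to 0.361 UMIs per *Inpp5d* UMI in microglia and at 0.206 to 0.285 in excitatory neurons, *Tyrobp* at 0.153 to 0.326 and 0.103 to 0.155, and *Vav1* at 0.118 to 0.144 and 0.0395 to 0.0674. For these genes the excitatory ratio was below the microglial one in every library, and for *Vav1* the ranges did not overlap. *Lyn* stood at 0.620 to 0.780 in microglia and at 7.20 to 12.1 in excitatory neurons, *Bin1* at 0.363 to 0.398 and 21.1 to 29.1, and *Syk* at 0.0708 to 0.121 and 0.668 to 1.05. Of those genes the neurons held more than the microglial proportion in every library. *Apbb1ip* was above its microglial proportion (0.632 to 1.02) in every library of oligodendrocytes (1.80 to 7.33) and of inhibitory neurons (2.05 to 6.0). *Plcg2* was above its own (0.161 to 0.207) in every library of inhibitory neurons (0.619 to 2.0). It was also above in every library of excitatory neurons (0.186 to 0.296), although those ranges overlapped. In inhibitory neurons the ratios rest on 5 to 42 *Inpp5d* UMIs, and in oligodendrocytes on 3, 56, 11 and 6. Microglia markers took 0.00686%, 0.0115%, 0.00836% and 0.00981% of the UMIs of excitatory neurons, a class limited to less than 0.3% per nucleus. In microglia they took 1.53% to 2.24%. The level of background RNA itself was not measured, so its part in the counts of other classes was not tested.

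**Figure D2:**
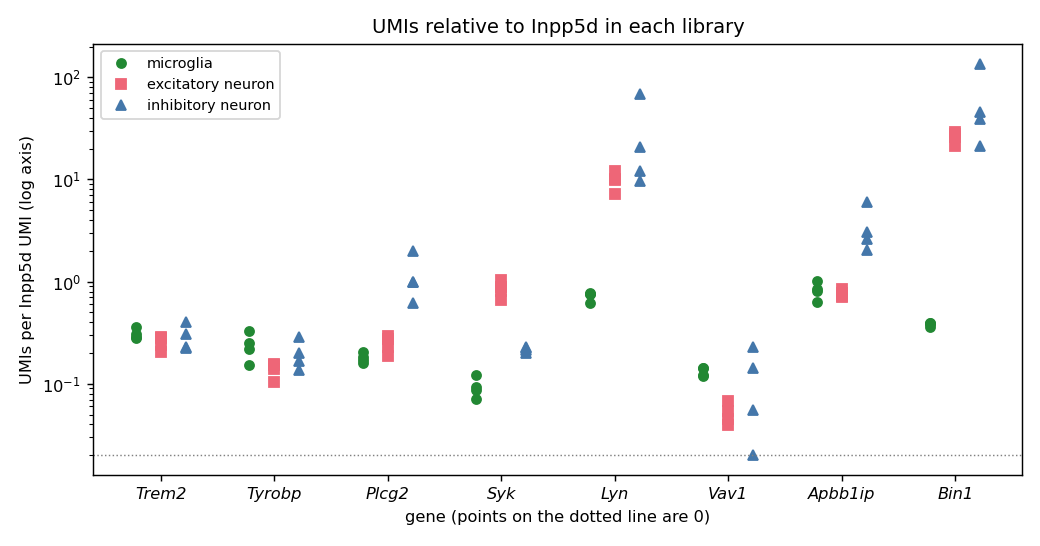
UMIs of 8 members per *Inpp5d* UMI on a log axis, 1 point for each of the 4 libraries, in microglia (circles), excitatory (squares) and inhibitory neurons (triangles), with values of 0 on the dotted line. For *Trem2* the excitatory points, 0.206 to 0.285, overlap the microglial points, 0.283 to 0.361, and each lies below the microglial point of its own library. For *Lyn* and *Bin1* all neuronal points lie at 7.20 or higher.

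Nucleus by nucleus, *Inpp5d* had a UMI in 69.8%, 78.1%, 82.0% and 82.1% of microglia, against 2.14% to 2.40% of excitatory neurons, although the latter were deeper (median 6360.5 to 9704 UMIs against 1115.5 to 1462). *Trem2* was found in 39.6%, 37.9%, 44.3% and 41.1% of microglia and 0.585% to 0.908% of excitatory neurons. *Lyn* was found in 62.0%, 64.5%, 77.6% and 70.2% and in 16.4% to 26.1%. *Bin1* was found in a like share of both, 44.8%, 51.5%, 55.2% and 49.0% against 43.9% to 55.7%, and the level in CPM separated them. A microglial nucleus held on average 3.82, 3.89, 4.48 and 4.24 of the 9 members and at most 8, and an excitatory nucleus 0.704 to 0.90.

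Shares depend on depth, so nuclei with at least 1000 UMIs (120, 134, 148 and 101 microglia) were also thinned to 1000 UMIs. This left out 72, 35, 35 and 50 shallower microglia. *Trem2* was then found in 32.5%, 26.9%, 38.5% and 35.6%, *Syk* in 12.5%, 8.21%, 14.2% and 17.8%, and *Lyn* in 60.8%, 51.5%, 70.3% and 69.3%. For these genes and for *Bin1* both HET libraries lay above both WT libraries, as they did in 22.1% of the genes tested in microglia when all genes were thinned alike (and below in 19.7%). That second random draw, added after the data were seen, also put *Plcg2* above (16.7%, 23.1%, 27.7% and 24.8%) and brought the genotypes closer for *Trem2* (30.8%, 30.6%, 32.4% and 32.7%). The other 4 members overlapped in both draws. The summed levels of *Trem2* and *Bin1* overlapped all the same (given further on). The mean number of members per thinned microglial nucleus was 3.65, 3.19, 3.93 and 3.85. The thinned shares of *Bin1* separated the classes, with 39.2% to 52.0% of microglia against 7.5% to 8.36% of excitatory neurons. With 2 libraries per genotype no exact permutation test can give a two-sided p below 0.333, and none is given for these shares.

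No member was called between genotypes in microglia. Of the 3034 genes tested there, 32 had an adjusted p below 0.05 (1.05%, all lower in HET), 198 had an unadjusted p below 0.01 (6.53%) and 428 one below 0.05 (14.1%). None of the 9 members passed any of these limits in the main edgeR quasi-likelihood fit, the likelihood-ratio test or DESeq2. Among the other fits that kept all 4 libraries, only *Syk* had an unadjusted p below 0.05. This was in the quasi-likelihood fits on library totals (0.034) and without the detection limit (0.032). In the main fit all 9 fold changes were above 0, with a median of 0.14 on the log2 scale and a range of 0.01 to 0.56. Among all genes 51% were above 0, with a median of 0.01. The sign depended on the scaling, since scaling to the UMIs of the 22 microglia markers moved the median of all genes to -0.22 and left 2 of 9 members, *Syk* and *Lyn*, above 0.

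The microglial libraries differed in what else they held. Microglia markers took 1.89%, 1.53%, 2.24% and 1.95% of their UMIs, with WT replicate 2 lowest. Pan-neuronal genes took 1.2%, 1.18%, 0.653% and 0.97%, lower in both HET libraries. Astrocyte markers took 0.0410%, 0.0856%, 0.0432% and 0.0356% and oligodendrocyte markers 0.0179%, 0.0722%, 0.0227% and 0.0180%, with WT replicate 2 highest in both. Without the 25% of nuclei with the most neuronal RNA in each library, all 9 fold changes stayed above 0 with a median of 0.14. The part of the astrocyte and oligodendrocyte RNA in the fold changes was not tested.

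**Figure D3:**
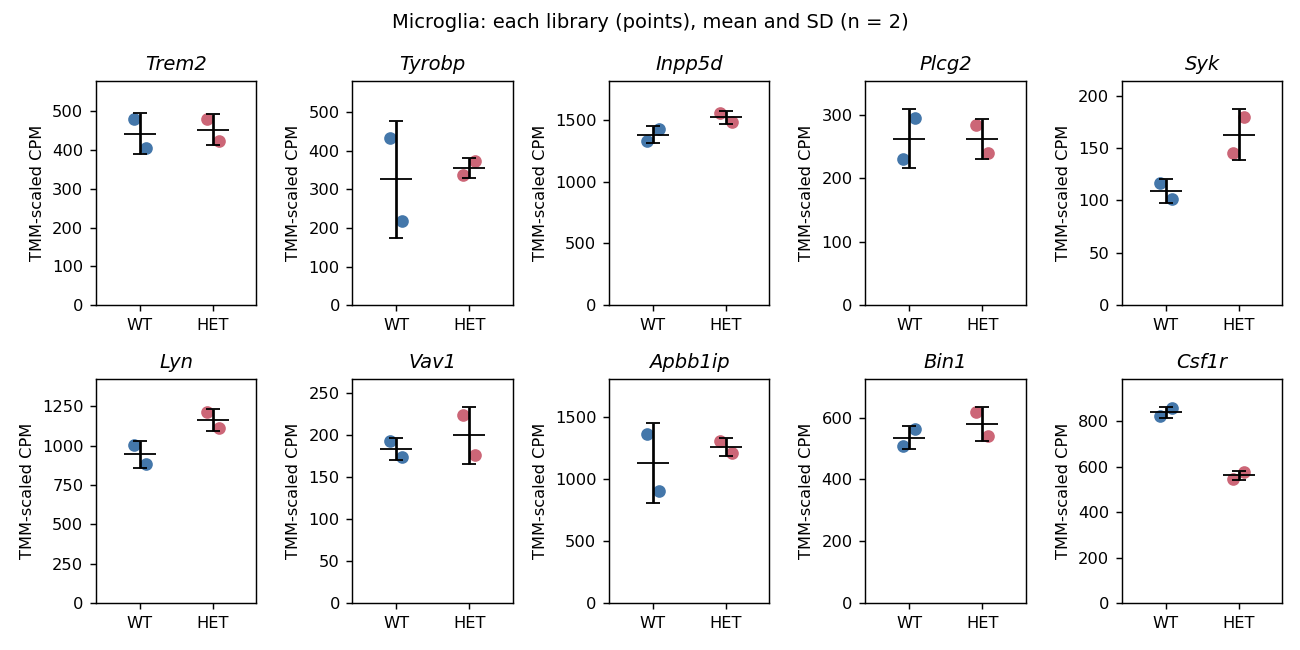
TMM-scaled CPM in microglia of each library (points) with the mean and SD of the 2 WT and 2 HET libraries, for the 9 members and *Csf1r*. The HET points lie above the WT points for *Inpp5d*, *Syk* and *Lyn*, below them for *Csf1r*, and among them for the other 6 genes.

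*Syk* had the largest fold change. Its TMM-scaled levels were 117, 101, 145 and 180 CPM, so that both HET libraries exceeded both WT libraries (1.48-fold, log2 0.56, SE 0.28, 95% interval -0.03 to 1.2, edgeR adjusted p = 0.395). *Lyn* had 1006, 886, 1214 and 1112 CPM, also without overlap (1.23-fold, log2 0.30, SE 0.19, 95% interval -0.11 to 0.71, edgeR adjusted p = 0.544). *Inpp5d* had 1331, 1428, 1556 and 1486 CPM without overlap (1.10-fold, log2 0.14, SE 0.19, 95% interval -0.27 to 0.55, adjusted p = 0.819). Both HET libraries stood above both WT libraries in these 3 of 9 members, and in 20.4% of all genes tested.

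The receptor genes showed little difference. *Trem2* had 480, 404, 480 and 424 CPM, with the genotypes interleaved (log2 0.04, SE 0.19, 95% interval -0.37 to 0.45, adjusted p = 0.962). *Tyrobp* had 434, 218, 338 and 374 CPM, and the WT libraries enclosed the HET libraries (log2 0.12, SE 0.26, 95% interval -0.44 to 0.69, adjusted p = 0.891). Its fold change ran from -0.28 without WT replicate 2 to 0.69 without WT replicate 1, so WT replicate 2 decided the sign.

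The same library stood apart for *Apbb1ip*, with 1360, 902, 1309 and 1209 CPM (log2 0.16, SE 0.22, 95% interval -0.31 to 0.62, adjusted p = 0.821), and the value ran from -0.10 without WT replicate 2 to 0.48 without WT replicate 1. *Plcg2* had 229, 295, 284 and 240 CPM (log2 0.01, SE 0.22, 95% interval -0.45 to 0.47, adjusted p = 0.998), the smallest fold change of the members. *Vav1* had 192, 174, 223 and 175 CPM (log2 0.14, SE 0.24, 95% interval -0.37 to 0.65, adjusted p = 0.861). *Bin1* had 509, 562, 619 and 540 CPM (log2 0.12, SE 0.19, 95% interval -0.28 to 0.52, adjusted p = 0.853). In each of these the genotypes overlapped.

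**Figure D4:**
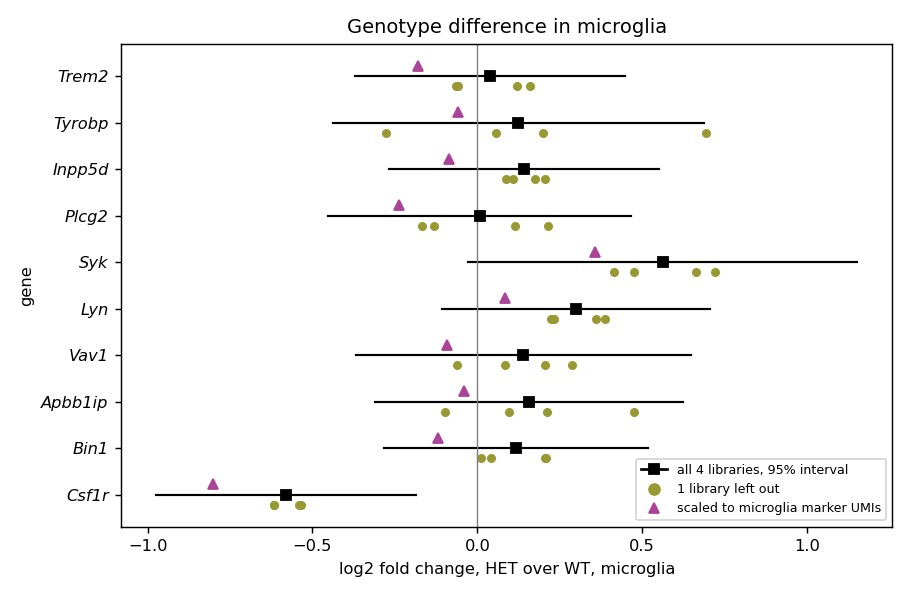
Log2 fold change of HET over WT in microglia for the 9 members and *Csf1r*, as the value with all 4 libraries and its 95% interval (squares and lines), with 1 library left out (circles) and scaled to the microglia marker UMIs (triangles). The intervals of all members include 0, from -0.37 to 0.45 for *Trem2*, and that of *Csf1r* does not.

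Of the 695 microglia, 17 had at least 2 markers of border macrophages, cells of the meninges and vessels that also carry many of these genes. Their *Trem2* level was 430 CPM (95% exact Poisson interval 214 to 768, 11 UMIs), against 450 (409 to 494) in the other 678. *Inpp5d* was at 1249 (855 to 1764) and 1461 (1386 to 1539). Without these nuclei no member was called and all 9 fold changes stayed above 0.

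The wider pathway was followed in 122 genes of 7 lists, of which 98 had at least 10 UMIs in microglia and 67 entered the test. None rose, 1 fell at the adjusted threshold and 3 at the study's rule. Of all 3034 genes tested, 32 (1.05%) passed the adjusted threshold and 198 (6.53%) the study's rule. Values were above 0 for 48 pathway genes and below 0 for 19, and above 0 for 51% of all genes tested. The median was 0.19 against 0.01 for all genes tested. Scaling shifts all of these values together.

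*Apoe*, a lipid carrier that binds TREM2, was the gene that fell at the adjusted threshold. It had 153, 189, 103 and 58 UMIs, or 621, 742, 359 and 275 CPM on library totals, lower in both HET libraries. The TMM-scaled log2 fold change was -1.17 (SE 0.20, edgeR adjusted p = 0.0191). The edgeR adjusted p rose to 0.228 at the marker limit of 1.2% and to 0.155 with the second marker list, both with a lower HET level. All other fits that kept the 4 libraries called *Apoe* lower. Their adjusted p ran from 6.66e-05 (edgeR likelihood-ratio test) to 0.0408 (edgeR without the detection limit), and DESeq2 gave 0.0304. The value was -1.30 without WT replicate 1, -1.02 without WT replicate 2, -1.39 without HET replicate 1 and -1.01 without HET replicate 2. Over all libraries *Apoe* was at 504 CPM in microglia and at 4125 in astrocytes, 848 in endothelial cells and 42.9 in excitatory neurons, and the astrocyte marker share given for each microglial library was highest in WT replicate 2. The other members of the ligand and TREM family list that were tested had log2 fold changes of -0.04 (*Adam10*, a protease that sheds TREM2) or more.

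Among ITAM adaptors, SYK-linked scaffolds and effectors, 19 of 27 genes entered the test and 0 were called, with 16 above 0 and a median of 0.23. The 3 with the most UMIs were *Prkcb*, a protein kinase C (log2 -0.07, SE 0.20), *Itpr2*, a calcium channel of the endoplasmic reticulum (0.23, SE 0.20), and *Pik3r1*, a regulatory subunit of PI3 kinase (0.26, SE 0.19). *Fcer1g*, an ITAM adaptor like *Tyrobp*, had 99, 66, 126 and 62 UMIs (log2 0.09). *Fcer1g* was chosen after its values were seen.

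Of the Src family kinases and their regulators, 5 of 12 entered the test and 0 were called, with a median of 0.19. *Pag1*, a scaffold for the inhibitory kinase CSK, had log2 0.19 (SE 0.19) and *Ptprc*, the phosphatase CD45, had -0.15 (SE 0.19). *Cbl*, a ubiquitin ligase that acts on active kinases and on CSF-1R, had 37, 56, 93 and 61 UMIs. On library totals these were 150, 220, 324 and 289 CPM, with both HET libraries higher (TMM-scaled log2 0.65, SE 0.23, edgeR adjusted p = 0.178). Of the inhibitory receptors and phosphatases 6 of 18 were tested, with a median of 0.22. *Ubash3b* had -0.03 (SE 0.21), *Sirpa*, the receptor for CD47, 0.12 (SE 0.20) and *Lair1*, a collagen receptor, 0.20 (SE 0.24).

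Partners of *Apbb1ip* and *Vav1* at Rap1, integrins and actin gave 14 tested of 20, with 12 above 0, a median of 0.22 and 0 called. *Elmo1* and *Dock2*, which activate Rac, had 0.22 (SE 0.21) and 0.21 (SE 0.21). *Dock8*, an activator of Cdc42, had 803, 848, 1405 and 1034 CPM on library totals without overlap (TMM-scaled log2 0.48, SE 0.20, edgeR adjusted p = 0.282). *Dock8* had 1036 CPM in microglia over all libraries, against 1.27 in excitatory neurons and 7.03 in oligodendrocytes.

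Of the membrane partners of *Bin1*, 13 of 16 were tested, with a median of 0.08. *Dnm3*, a dynamin that cuts vesicles from membranes, passed the study's rule as lower in HET (33, 60, 22 and 15 UMIs, log2 -1.40, SE 0.33, adjusted p = 0.0539). *Dnm3* was at 130 CPM in microglia and higher in oligodendrocytes (1508) and excitatory neurons (316), and the pan-neuronal share of the microglial libraries was lower in HET. Without the 25% of nuclei with the most neuronal RNA the value was -1.35 (edgeR adjusted p = 0.0511). It was -0.53 (edgeR adjusted p = 0.733) with the marker limit of 1.2%, -0.99 (adjusted p = 0.309) with the second marker list and -0.91 without WT replicate 2. Of the other alternatives that kept all 4 libraries, some called *Dnm3* lower. These were the likelihood-ratio test (adjusted p = 0.00544), the replicate block (0.00314), at least 1000 UMIs per nucleus (0.0409) and scaling to marker UMIs (0.0202). The value was -1.75 without WT replicate 1, -1.45 without HET replicate 1 and -1.35 without HET replicate 2.

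The last list held genes that rise in disease-associated microglia. Some, such as *Axl*, *Cst7* and *Lpl*, are known to need TREM2 for this, and others, such as *Fth1*, *B2m*, *Ctsb* and *Ctsd*, belong to an earlier stage that does not. Of 18 genes 12 had at least 10 UMIs and 7 were tested, 2 above 0 and 5 below, with a median of -0.29. The best counted was *Ctsd*, a lysosomal protease, with 1001 UMIs (log2 0.05, SE 0.23). The least counted were *Axl*, *Cst7*, *Lpl*, *Itgax*, *Spp1* and *Gpnmb*, with 3, 2, 2, 1, 1 and 0 UMIs over all 695 microglia. These 7 genes were chosen after their values were seen. *Fth1*, the heavy chain of the iron store ferritin, passed the study's rule as lower in HET (99, 164, 92 and 47 UMIs, log2 -1.01, SE 0.25, adjusted p = 0.0588). It was -0.61 without WT replicate 2, -0.72 (edgeR adjusted p = 0.436) at the marker limit of 1.2% and -0.40 (adjusted p = 0.658) with the second marker list. Of the other alternatives that kept all 4 libraries, some called *Fth1* lower. These were the likelihood-ratio test (adjusted p = 0.00912), the replicate block (0.00245), scaling to marker UMIs (0.0207) and removal of the nuclei with the most neuronal RNA (0.0249). The value was -1.31 without WT replicate 1, -1.31 without HET replicate 1 and -0.79 without HET replicate 2. *Fth1* was at 402 CPM in microglia, 1733 in astrocytes and 914 in endothelial cells.

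**Figure D5:**
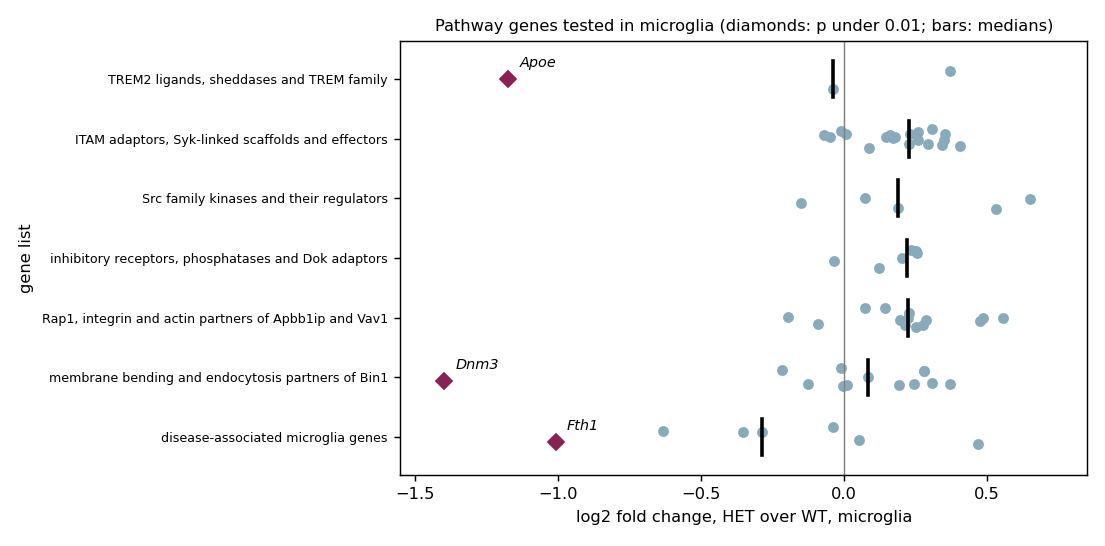
Log2 fold change of HET over WT in microglia for the 67 pathway genes tested, 1 point per gene and 1 row per list, with the median of each list as a bar and genes at an unadjusted p below 0.01 as diamonds. The 3 diamonds, *Apoe*, *Dnm3* and *Fth1*, lie at -1.17, -1.40 and -1.01, and the medians run from -0.29 to 0.23.

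The genotype comparison was repeated in the 4 other classes with at least 10 nuclei in every library, where only *Lyn* and *Bin1* reached the detection limit. None of the 6 comparisons was called, and in those classes 0% to 0.0674% of genes were. In oligodendrocytes *Bin1* had a log2 fold change of 0.24 (SE 0.16, edgeR adjusted p = 0.953). In excitatory and inhibitory neurons *Bin1* had -0.08 (SE 0.09) and 0.01 (SE 0.09), the most precise values of any member. *Lyn* had 0.11 (SE 0.35) in endothelial nuclei, 0.06 (SE 0.30) in excitatory and 0.32 (SE 0.22) in inhibitory neurons, and 0.30 in microglia. In excitatory neurons *Lyn* was lowest in WT replicate 1 and highest in WT replicate 2, with 21.5, 42.5, 28.8 and 35.7 CPM. Without WT replicate 2, *Lyn* was at 0.68 in inhibitory neurons (edgeR adjusted p = 0.204) and at 0.58 in excitatory neurons (adjusted p = 0.961). Without WT replicate 1 *Lyn* was at 0.04 in inhibitory and -0.32 in excitatory neurons, so the sign in excitatory neurons turned. It also turned without HET replicate 2, at -0.11 in excitatory neurons and -0.11 in endothelial nuclei.

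The genes most like each member were sought among 17092 genes by the correlation of log2(CPM + 1) over 32 points, 8 classes in 4 libraries. These points share their libraries, so the values are a description. Points of OPCs, astrocytes and mural nuclei come from as few as 3 nuclei, so single UMIs there can move the correlations. For example, the only *Inpp5d* UMI in OPCs was 33.9 CPM in its library. *Trem2* and *Tyrobp* were both closest to *Cd86*, a costimulatory ligand (Pearson r = 0.992 and 0.997), and to *A630001G21Rik* (0.989 and 0.996). *Vav1* was closest to *Susd3* (0.999) and *Pik3cg*, a PI3 kinase of leukocytes (0.997), *Syk* to *Kcnk6* (0.983) and *Lacc1* (0.975), *Inpp5d* to *Ltc4s* (0.948) and *Nrros* (0.928), and *Plcg2* to *Fermt3*, an integrin activator (0.946), and *Traf3ip3* (0.940). *Lyn*, *Apbb1ip* and *Bin1* had no neighbour above 0.874. The nearest were *Pag1* (0.865) and *Dgkd* (0.861) for *Lyn*, *Itga9* (0.871) and *Man2b1* (0.828) for *Apbb1ip*, and *Clec16a* (0.874) and *Cpeb1* (0.868) for *Bin1*. Between members, *Trem2* and *Tyrobp* had r = 0.992, and *Lyn* and *Bin1* 0.259.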

How the data were processed

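Nuclei from 4 mouse brains were counted with Cell Ranger 5.0.0 per the file headers, against the build that the submitters' processing notes name (mm10). The authors deposited whole-number UMI counts per gene and nucleus, before normalization and before the study's filters. Whether reads in introns and the strand were used in counting is not given in the sources used here. Nuclei were kept here if they had 500 to 50000 UMIs, over 200 genes and less than 5% mitochondrial UMIs.

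Classes were assigned nucleus by nucleus from marker genes, without the 9 members and without *Csf1r*. A glial or vascular class needed at least 3 markers of its list and at least 0.6% of the UMIs of the nucleus from that list, and no other such class could pass. Neurons needed 1.5% of UMIs from pan-neuronal genes, less than 0.3% from any glial or vascular list, and 0.15% from the excitatory or 0.05% from the inhibitory list, from at least 3 markers of it. The excitatory share had to be at least 3 times the inhibitory share for an excitatory nucleus, and no higher than it for an inhibitory one. These limits were set after the marker distributions were seen. No doublet caller was run, and the nuclei that passed for more than 1 class were set apart.

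Counts were summed per library and class. CPM are counts scaled to 1000000 UMIs of that sum. They are given after TMM scaling where the genotypes are compared in microglia for the members and *Csf1r*. All other CPM, those of the pathway genes among them, are on library totals. Genotypes were compared with the quasi-likelihood test of edgeR 4.0.16 (R 4.3.3, limma 3.58.1), two-sided, on genes counted at least 10 times and detected in 10% or more of the nuclei of WT or of HET mice. Classes were compared with the library as a block on genes with at least 10 counts. P values were adjusted by Benjamini-Hochberg over all genes tested. Genes under the detection limit were taken from a fit without it. Calls needed an adjusted p below 0.05, and the study's own rule (unadjusted p below 0.01) is given beside them. Intervals on counts and shares are 95% exact intervals (Poisson, Clopper-Pearson) and, like the floor of 3 counts, cover counting error only. Files were read with Python 3.11.15, numpy 2.4.6, scipy 1.17.1 and pandas 2.3.3. The fit was tested on data simulated at a set dispersion for the microglia comparison. Of 200 genes among 3034 changed by 1.5 on the log2 scale, edgeR recovered 69% at the adjusted threshold and DESeq2 1.42.0 recovered 46%. No smaller change was simulated, and the largest of a member was 0.56 (*Syk*), so these shares do not apply to the members.

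The members and gene lists were chosen with earlier results of these data known. Named were all 9 members, *Csf1r*, the pathway genes with an unadjusted p below 0.01 in microglia or otherwise the 3 of each list with the most UMIs, and for each member the 2 genes with the most similar levels over classes and libraries. The alternatives were the likelihood-ratio test, DESeq2, RLE factors, library totals, no detection limit, a replicate block, leaving out each library, at least 1000 UMIs per nucleus, a marker limit of 1.2%, a second marker list at a limit of 0.2%, removal of nuclei with border macrophage markers or with the most neuronal RNA, and thinning. The scaling to microglia marker UMIs was added after the data were seen. For samples with the same number, the correlation of their deviations from the genotype means was -0.04 in microglia. With 2 libraries per genotype the deviations of the second pair mirror those of the first, so that pair adds no separate evidence.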

Additional observations from a re-analysis of the deposited data

Results flagged for a closer look

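In 4 cases both HET libraries lay below both WT libraries in another class while both lay above them in microglia. The differences between classes were not tested. Genes under the detection limit have values from the fit without it. *Lyn* had a log2 fold change of HET over WT of -0.49 in oligodendrocytes (12 and 81 UMIs in WT, 21 and 12 in HET, SE 0.36), against 0.30 in microglia. *Inpp5d* had -0.23 in excitatory neurons (223, 223, 177 and 193 UMIs, SE 0.24) and -1.27 in inhibitory neurons (22, 42, 18 and 5 UMIs, SE 0.51), against 0.14 in microglia. *Syk* had -1.23 in inhibitory neurons (5, 9, 4 and 1 UMIs, SE 0.77), against 0.56 in microglia. Only members whose genotypes did not overlap in microglia could be flagged. In inhibitory neurons *Trem2* (-1.33), *Tyrobp* (-1.63), *Plcg2* (-0.56), *Vav1* (-2.97) and *Apbb1ip* (-0.77) were also below 0, and *Lyn* (0.34) and *Bin1* (0.02) above. Most members thus had values below 0 there, at low counts, such as 5, 6, 1 and 0 UMIs of *Vav1*. None was called (edgeR adjusted p = 0.9995 for each). In oligodendrocytes *Trem2* (-1.10), *Tyrobp* (-1.02), *Plcg2* (-0.75) and *Inpp5d* (-0.70) were also below 0, and *Apbb1ip* (0.17) and *Bin1* (0.29) above, with none called. Microglia markers took 0.0101%, 0.0150%, 0.0116% and 0.0118% of the UMIs of inhibitory neurons, highest in WT replicate 2. The part of such RNA in these values was not tested. Both HET libraries lay below both WT libraries in 18.3% of genes in oligodendrocytes, 14.8% in excitatory and 14.1% in inhibitory neurons. No genotype had 4 or more libraries, so no library was tested as standing apart.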

How the results depend on the processing

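No member was called in microglia under any of the 16 alternatives, and none of the 6 comparisons in other classes under their 6. Microglia stayed the higher class in 62 of 63 comparisons under all 7 alternatives. The number of genes called in microglia (32) was less stable: 150 with the likelihood-ratio test, 11 with DESeq2, 19 with RLE factors, 17 on library totals, 12 without the detection limit, 21 without border macrophage-marked nuclei, 173 without the nuclei with the most neuronal RNA and 145 scaled to marker UMIs. It was 0 at the marker limit of 1.2% and 0 with the second marker list (340 and 381 genes at an unadjusted edgeR p below 0.05), and 0 to 159 with 1 library left out, with 0 reached without WT replicate 2 and 159 without HET replicate 2. The replicate block gave 181, although the labels did not pair same-numbered samples and the correlation of their deviations was -0.04.

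Scaled to marker UMIs, the fold changes were -0.042 for *Apbb1ip*, -0.12 for *Bin1*, -0.087 for *Inpp5d*, -0.24 for *Plcg2*, -0.18 for *Trem2*, -0.059 for *Tyrobp* and -0.092 for *Vav1*. *Trem2* was at -0.0025 at the marker limit of 1.2%. With 1 library left out the values ran from -0.066 to 0.16 for *Trem2*, -0.28 to 0.69 for *Tyrobp*, -0.17 to 0.21 for *Plcg2*, -0.060 to 0.29 for *Vav1* and -0.10 to 0.48 for *Apbb1ip*. The causes were not tested. Low UMI counts, at most 43 per library for *Syk*, limit what could be seen.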
